A study of Mus musculus with 12 samples.

Results

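The MYC, MAX and MXD network is a set of 10 genes here, taken by name as the MYC family (Myc, Mycn, Mycl), the partner proteins MAX and MLX (Max, Mlx) and the antagonists of MYC (Mxd1, Mxd3, Mxd4, Mxi1, Mnt), out of 41444 genes in the deposited table. The rule uses names and no measured value, but the set was proposed with earlier results of these data known. All 10 lay above the minimum mean level of 3 on the log2 scale that 11536 genes passed, so that every member could be tested.

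The measurements are RNA-seq of pre-B cells from the bone marrow of Ctnnb1 fl/fl mice, which were expanded in IL7 and then transformed with a BCR-ABL1 retrovirus as a model of B cell acute lymphoblastic leukemia (B-ALL). The series has 12 samples in 4 groups. Of these, 3 samples of control cells and 3 samples of cells treated with LY2090314, a small-molecule inhibitor of the kinase GSK3β, are compared here. Both groups carried the ERT2 vector without Cre, so that the floxed Ctnnb1 alleles stayed intact in both, and both received 1 µM 4-hydroxytamoxifen for 2 days. The treated cells were also given LY2090314 at 40 nM, for 1 day per the labels, while a figure legend of the study gives a shorter time. The question the comparison addresses is what GSK3β inhibition, which stops the degradation of β-catenin, does to gene expression in B-ALL cells, here within the network around MYC. Samples are called control 1 to 3 and treated 1 to 3, and these numbers are names that do not pair a control with a treated sample. The column names of treated samples 1 and 2 share a library number, and the labels do not say that the samples of a group came from separate animals or cultures, whereas a figure legend of the study calls them biological replicates from different mice. If they were not, p-values measure technical spread only.

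MYC proteins are short-lived transcription factors that bind DNA only as heterodimers with MAX, preferentially at the E-box hexamer, and raise transcription of genes for growth, nucleotide synthesis and ribosome production. The MXD proteins, MXI1 (also known as MXD2) and MNT compete for the same partner and the same E-boxes, and recruit the SIN3 and HDAC corepressors, while MLX is the related partner of the glucose-sensing factors MLXIP (MondoA) and MLXIPL (ChREBP) and can also pair with some of the antagonists. In B cell precursors and in leukemias driven by BCR-ABL1, MYC supports proliferation, and MXD proteins are typical of cells that leave the cell cycle.

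All values are regularized log2 (rlog) levels, a log2 scale on which a difference of 1 is a doubling and on which differences of genes with few reads are shrunken. The 6 samples separated by group. The standard deviation across genes of the difference between a pair of samples was 0.185 to 0.253 within groups and at least 0.581 between them. Control sample 3 and treated sample 3 deviated from their group means in the same direction (Pearson r = 0.344 across 11536 genes, which are not independent replicates). Control 1 with treated 2 gave 0.265 and control 2 with treated 1 gave 0.137, and the other combinations ranged from -0.299 to 0.0888, but no label matches a control to a treated sample. The difference between the samples numbered 3 is therefore given beside that of samples 1 and 2 for each member as a description and not as a matched pair, and what sets the samples numbered 3 apart was not tested. Of the pre-B cell markers, 10 of 12 were lower and 1 higher in treated cells (summed level 16.34 to 16.36 in controls and 15.76 to 15.91 in treated samples). None of 7 T cell and none of 6 stromal markers passed the filter. Of 8 myeloid markers 3 passed it and 2 were higher, and Ly6g rose from 3.48 ± 0.038 to 6.45 ± 0.054 (SD, n = 3 each), while the defining markers Mpo, Elane and Adgre1 were listed at 0. The summed myeloid level was 6.339 to 6.512 in controls and 7.515 to 7.571 in treated samples, and that of 6 erythroid markers, of which 1 was tested and was lower, was 4.382 to 4.428 and 4.091 to 4.124. The part of these markers in the results on the network was not tested. In bulk RNA, fewer cells that express a gene cannot be told apart from less RNA per cell.

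The promoters of the network are shown first because several members carry the sequence that the network itself binds. RefSeq promoters (GRCm38.p6, 250 bases before to 50 after the annotated start) were found for 9 of the 10 members, 11 promoters in all, and not for Myc. A member was counted once if any of its promoters held a sequence, whereas the genome-wide shares are of single promoters. The canonical E-box CACGTG, which is its own reverse complement, was present in this window in 4 of the 9 members, Mxd4, Mnt, Mlx and Max, compared with 7.15% of 32851 promoters genome-wide. Within the 250 bases before the start, it was present in 3 of 9 members and 6.02% of promoters. The stretches of the 3 promoters that lie before the first exon are given 5′ to 3′ on the strand of the gene, with the E-box in capitals. They are Mxd4 (chr5:34187721-34187960, minus strand), Mnt (chr11:74830674-74830919, plus strand) and Mlx (chr11:101087040-101087276, plus strand).
Mxd4: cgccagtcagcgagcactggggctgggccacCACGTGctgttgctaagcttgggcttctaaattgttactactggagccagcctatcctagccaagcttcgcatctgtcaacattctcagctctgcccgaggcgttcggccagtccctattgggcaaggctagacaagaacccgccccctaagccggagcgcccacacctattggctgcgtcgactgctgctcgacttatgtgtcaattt
Mnt: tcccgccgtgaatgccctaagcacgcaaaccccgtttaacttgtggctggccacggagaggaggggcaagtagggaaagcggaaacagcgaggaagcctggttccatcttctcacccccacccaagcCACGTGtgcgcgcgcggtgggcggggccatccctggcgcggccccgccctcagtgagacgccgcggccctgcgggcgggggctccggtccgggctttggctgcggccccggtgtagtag
Mlx: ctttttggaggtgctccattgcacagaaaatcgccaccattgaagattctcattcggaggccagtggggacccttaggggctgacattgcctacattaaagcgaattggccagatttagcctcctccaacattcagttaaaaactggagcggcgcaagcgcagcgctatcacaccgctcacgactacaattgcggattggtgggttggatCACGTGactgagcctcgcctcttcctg
The E-box began 219 bases before the start in Mxd4, 123 in Mnt, 40 in Mlx and 3 in Max, where it runs across the start. These 4 genes did not share a direction, as described below, since Mxd4 and Mlx were higher and Mnt and Max lower in treated cells. A sequence that TCF and LEF factors bind, CTTTGAA or CTTTGAT on either strand, was found in 1 member, Mycn, where it begins 14 bases before the start inside an annotated exon, compared with 8.65% of promoters. The Ikaros sequence TGGGAA on either strand was found in 2 members, Mxd3 and Mxi1, compared with 25.6% of promoters. It is a longer form of the core GGGAA named in the study. The shorter core was not counted, and it occurs in the Mnt stretch above. A match describes these windows only and does not show binding.

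LY2090314 lowered Myc more than any other member, lowered Mycn, Mxi1, Mxd3, Mnt and Max, and raised Mxd4, Mxd1 and Mlx. Of the 10 members, 9 passed the limma test at an adjusted p under 0.05, compared with 50.1% of all genes tested. The 3 higher members compare with 24.8% of genes called higher, and the 6 lower members with 25.3% called lower. The 2 groups did not overlap for any of the 10 members, compared with 58.6% of all genes. The median log2 difference of the members was -0.26 and their median size regardless of sign 0.51, compared with 0.012 and 0.242 over all genes tested. A difference of at least 1 was found for 2 members, Myc and Mxi1, compared with 6.01% of all genes. In an exact two-sided permutation test of 3 against 3 samples each member gave p = 0.1, the smallest value this design allows, so that calls rest on limma.

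**Figure D1:**
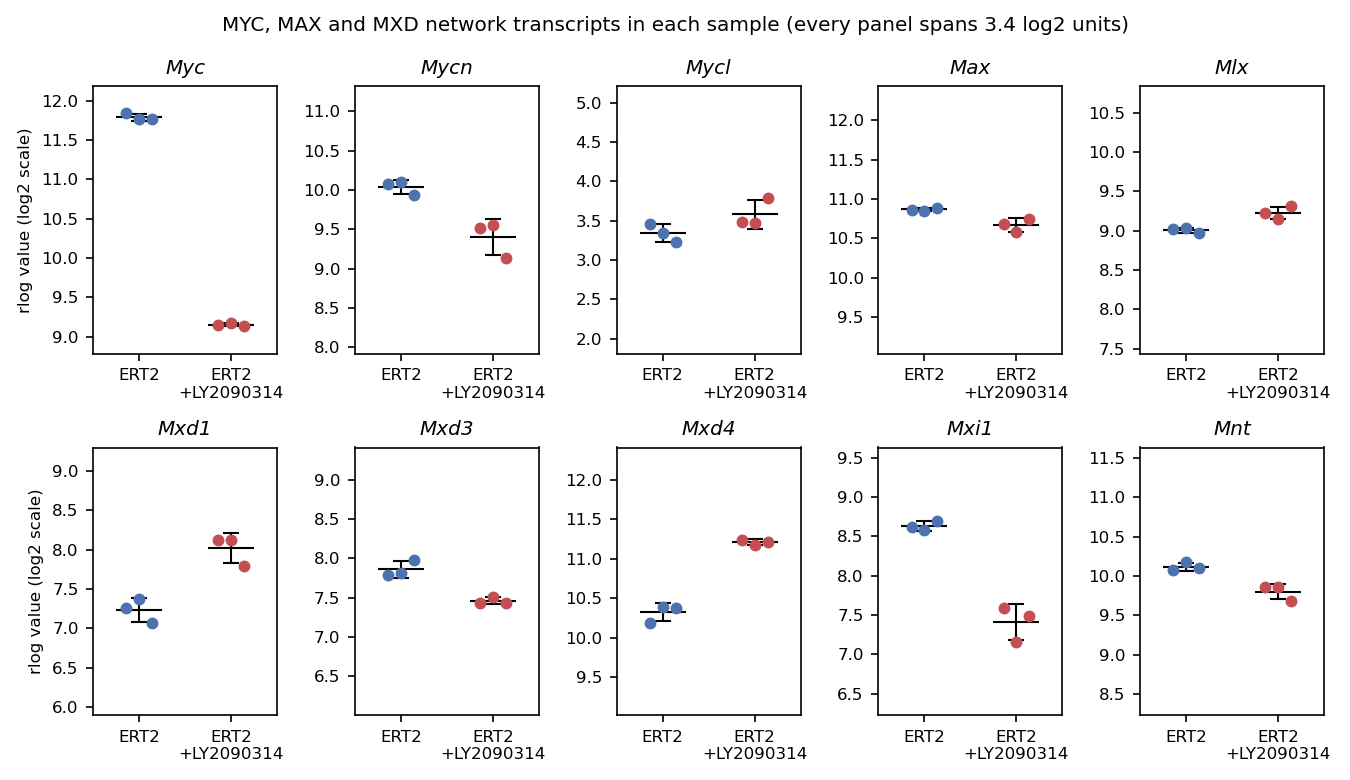
The rlog level (log2) of each of the 10 members is plotted for the 3 control samples and the 3 samples treated with LY2090314, 1 panel per gene and 1 point per sample, with horizontal lines at the group means and error bars of 1 SD. Myc falls from 11.79 to 9.15 with little spread inside either group, whereas the 3 antagonists Mxd3, Mxi1 and Mnt go down and Mxd1 and Mxd4 go up.

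Myc (chr15:61985391-61990374, plus strand of GRCm38), the family member most often deregulated in B cell leukemia and lymphoma, stood at 11.84, 11.77 and 11.76 in the control samples and at 9.15, 9.17 and 9.13 in the treated samples. The gap between the lowest control and the highest treated sample was 2.59, many times the spread inside either group (SD 0.042 and 0.017, n = 3 each). The log2 difference was -2.64 (SE 0.046, 95% interval -2.75 to -2.53, limma adjusted p = 1.9e-08), a level 6.23-fold lower. By size, this difference ranked at position 69 of the 11536 genes. It was -2.65 in samples 1 and 2 and -2.63 in the samples numbered 3.

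Mycn (chr12:12936093-12941914, minus strand), the paralog best known from neuroblastoma and also expressed in B cell progenitors, stood at 10.07, 10.1 and 9.93 in controls and at 9.52, 9.55 and 9.14 in treated samples. Its level fell by 0.63 (SE 0.11, 95% interval -0.89 to -0.37, limma adjusted p = 0.0024), 1.55-fold, with treated sample 3 the lowest. The difference was -0.55 in samples 1 and 2 and -0.79 in the samples numbered 3. Mycl (chr4:122995652-123002485, plus strand), the third paralog, was near the filter at 3.46, 3.34 and 3.23 in controls and 3.48, 3.47 and 3.79 in treated samples. Its groups were apart by only 0.012, and the log2 difference of 0.24 did not pass the test (SE 0.11, 95% interval -0.019 to 0.5, limma adjusted p = 0.11). It was 0.08 in samples 1 and 2 and 0.56 in the samples numbered 3, so that most of it lay in treated sample 3. Among the MYC family, the decrease of Myc was therefore accompanied by a smaller decrease of Mycn and by no detected increase of Mycl.

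The partners moved little and in opposite directions. Max (chr12:76937269-76962201, minus strand), the obligate partner of MYC and a partner of the antagonists, stood at 10.86, 10.85 and 10.89 in controls. In treated samples it stood at 10.68, 10.58 and 10.75. The log2 difference was -0.19 (SE 0.055, 95% interval -0.32 to -0.063, limma adjusted p = 0.021), 1.14-fold lower. Mlx (chr11:101087277-101092207, plus strand), the partner of the Mondo proteins, stood at 9.02, 9.03 and 8.97 in controls and at 9.22, 9.15 and 9.31 in treated samples, a log2 difference of 0.22 (SE 0.063, 95% interval 0.07 to 0.36, limma adjusted p = 0.022). Both were smaller than the median size over all genes of 0.242, and both calls were fragile. Max no longer passed without any 1 of control samples 1, 2 or 3 or without treated sample 1 or 2 (log2 difference -0.2 to -0.15, limma adjusted p 0.054 to 0.077). Mlx no longer passed without any 1 of control samples 1, 2 or 3 or without treated sample 1 (0.2 to 0.23, limma adjusted p 0.055 to 0.06). Mlx shares 385 exon bases with Psmc3ip on the other strand, which went from 8.048 to 7.889, and the strand setting of the authors' quantification is not stated.

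The antagonists split. Mxd4 and Mxd1 were higher in treated cells, and Mxi1, Mxd3 and Mnt were lower. Mxd4 (chr5:34173883-34187720, minus strand), an MXD protein found in differentiating and resting cells, stood at 10.19, 10.39 and 10.38 in controls and at 11.24, 11.17 and 11.22 in treated samples. It rose by 0.89 (SE 0.063, 95% interval 0.74 to 1.04, limma adjusted p = 1.7e-05), 1.85-fold, the largest increase among the members. An antisense gene, Gm42846, which was not analysed here, shares 514 exon bases with it. Mxd1 (chr6:86647042-86669161, minus strand), the founding antagonist, which is induced when myeloid and lymphoid cells differentiate, stood at 7.26, 7.38 and 7.07 in controls and at 8.13, 8.13 and 7.8 in treated samples. It rose by 0.79 (SE 0.12, 95% interval 0.5 to 1.07, limma adjusted p = 0.0012), 1.73-fold, with the samples numbered 3 lowest in each group.

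Mxi1 (chr19:53310518-53375810, plus strand), an antagonist with several alternative promoters, had the largest decrease after Myc. It stood at 8.62, 8.58 and 8.7 in controls and at 7.59, 7.16 and 7.49 in treated samples, a log2 difference of -1.21 (SE 0.12, 95% interval -1.49 to -0.94, limma adjusted p = 9.4e-05), 2.32-fold lower. The treated samples were more spread (SD 0.23) than the controls (SD 0.062), and the gap between the groups of 0.98 exceeded both. Mxd3 (chr13:55325168-55329823, minus strand), unusual among MXD genes in being expressed during S phase of proliferating progenitors, stood at 7.79, 7.81 and 7.98 in controls and 7.44, 7.51 and 7.44 in treated samples. It fell by 0.4 (SE 0.083, limma adjusted p = 0.0049). Mxd3 shares some exon bases with Prelid1 on the other strand, which stood at 11.22 and 11.2. Mnt (chr11:74830920-74845725, plus strand), the broadly expressed antagonist that is present in cycling and resting cells alike, stood at 10.08, 10.18 and 10.1 in controls and 9.86, 9.86 and 9.69 in treated samples, and fell by 0.32 (SE 0.063, limma adjusted p = 0.0039). The groups did not overlap for any antagonist. The antagonist directions were therefore bound to be the same in samples 1 and 2 as in the samples numbered 3. The differences were 0.91 and 0.84 for Mxd4, 0.81 and 0.73 for Mxd1, -1.22 and -1.2 for Mxi1, -0.33 and -0.54 for Mxd3 and -0.27 and -0.41 for Mnt.

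**Figure D2:**
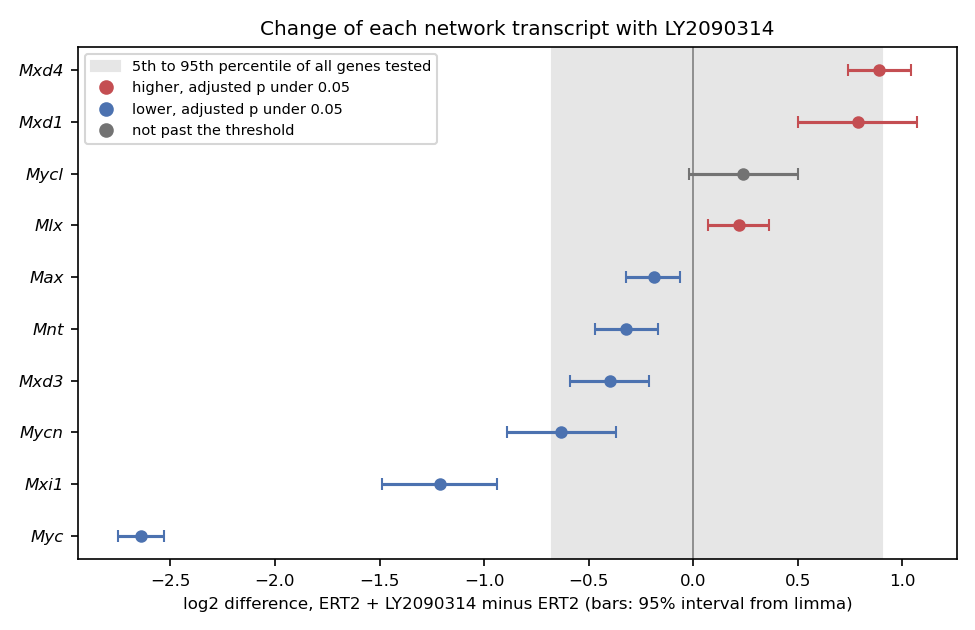
The log2 difference in rlog level between treated and control samples is plotted for each member with its 95% interval from limma (red for called higher, blue for called lower, grey for not called), and the grey band spans the 5th to 95th percentile of all 11536 genes tested. Myc at -2.64 and Mxi1 at -1.21 lie below the band, and Mycl is the member whose interval reaches 0.

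Levels of different genes were compared per length, as the rlog level minus log2 of the exon length in kilobases (all annotated exons of a gene joined). On this log2 per kb scale the order in control cells was Myc (10.35), Max (9.02), Mycn (8.31), Mlx (8.01), Mnt (7.91), Mxd4 (7.24), Mxd3 (6.62), Mxi1 (5.86), Mxd1 (4.41) and Mycl (1.33), and no neighbouring ranges over the 3 samples overlapped. Those of Mlx and Mnt nearly touched, with the lowest Mlx and the highest Mnt value both rounding to 7.97. With coding length Mlx was below Mnt in controls (9.17 and 9.29). In treated cells the order was Max (8.83), Mlx (8.22), Mxd4 (8.12), Myc (7.71), Mycn (7.68), Mnt (7.59), Mxd3 (6.22), Mxd1 (5.2), Mxi1 (4.65) and Mycl (1.57). Here the ranges of Mlx and Mxd4, of Myc and Mycn, and of Mycn and Mnt overlapped, so that these neighbours could not be ordered. Myc thus went from the highest level in the network to a level shared with Mycn, and Mxd1 and Mxi1 changed places. Within each sample, the level of Mxd1 per kb minus that of Mxi1 was -1.45 ± 0.22 in controls and 0.553 ± 0.33 in treated samples, and that of Mxd4 minus Mnt was -0.676 ± 0.082 and 0.534 ± 0.11 (SD, n = 3 each). The order depends on the length used. Mxd4 was below Mnt in controls only with joined exons. There it was above Mnt with the longest coding transcript (8.37 and 7.92) and with coding length (10.99 and 9.29). In controls, Myc exceeded Max by 1.33 with joined exons and by 0.66 with the longest coding transcript, but was 0.58 below it (-0.58) with coding length alone. In treated cells Mxd4 exceeded Myc under each of the 3 lengths, by 0.42, 1.33 and 3.18, whereas in controls it was lower under each (-3.11, -2.2 and -0.35).

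**Figure D3:**
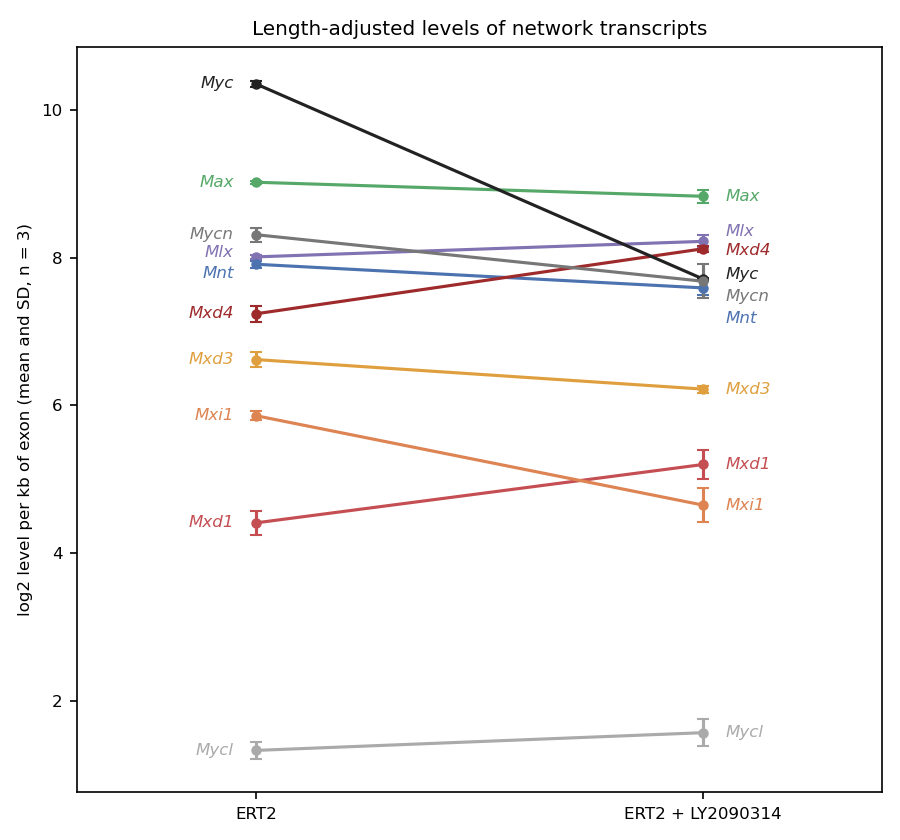
The level per kilobase of exon (log2 scale) is shown for each member in control and treated samples, with points at the group means, error bars of 1 SD (n = 3) and lines joining the means. The line of Myc runs from the top of the control column at 10.35 to 7.71, the line of Mxd4 rises from 7.24 to 8.12, and those of Mxd1 and Mxi1 cross.

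Levels per kb were also summed on the linear scale within each sample to describe how the network was made up. The share of Myc in the MYC family was 80.4%, 79.4% and 81.1% in controls and 48.2%, 47.9% and 54.2% in treated samples. That of Mycn was 19.6% ± 0.86 and 49.2% ± 3.7, and that of Mycl 0.155% ± 0.0074 and 0.72% ± 0.16 (SD, n = 3 each). Mycn thus made up a larger share of MYC family transcripts in treated cells although its own level was lower. Among the antagonists, the share of Mxd4 went from 26.5% ± 1.0 to 45.9% ± 1.6 and that of Mxd1 from 3.76% ± 0.42 to 6.06% ± 0.62. The shares of Mnt (42.3% ± 1.2 and 31.7% ± 1.3), Mxd3 (17.3% ± 1.0 and 12.2% ± 0.52) and Mxi1 (10.2% ± 0.54 and 4.14% ± 0.61) were lower. The antagonist sum itself differed by only 0.0962 on the log2 scale, compared with -1.96 for the MYC family sum, so that the antagonists differed mainly in which genes made up their sum. With other lengths the antagonist sum differed by 0.26 (longest coding transcript) and 0.47 (coding length). The share of Mxd4 depended on the length as well. It was 38.4% in controls and 59.4% in treated samples with the longest coding transcript. With coding length it was 54.9% and 73.4%.

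The ratio of the MYC family to the antagonists was 3.07, 2.78 and 2.71 in controls and 0.69, 0.72 and 0.65 in treated samples, or on the log2 scale 1.51 ± 0.095 and -0.542 ± 0.085, a change of -2.05 (SD, n = 3 each, no test, since the members define the ratio). The change was -2.19 with the longest coding transcript and -2.34 with coding length. The ratio in controls was above 1 with joined exons and with the longest coding transcript (2.85 and 2.22) but not with coding length (0.907), whereas in treated cells it was below 1 under all 3 lengths (0.688, 0.487 and 0.179). The ratio describes transcripts and not the abundance of the proteins.

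**Figure D4:**
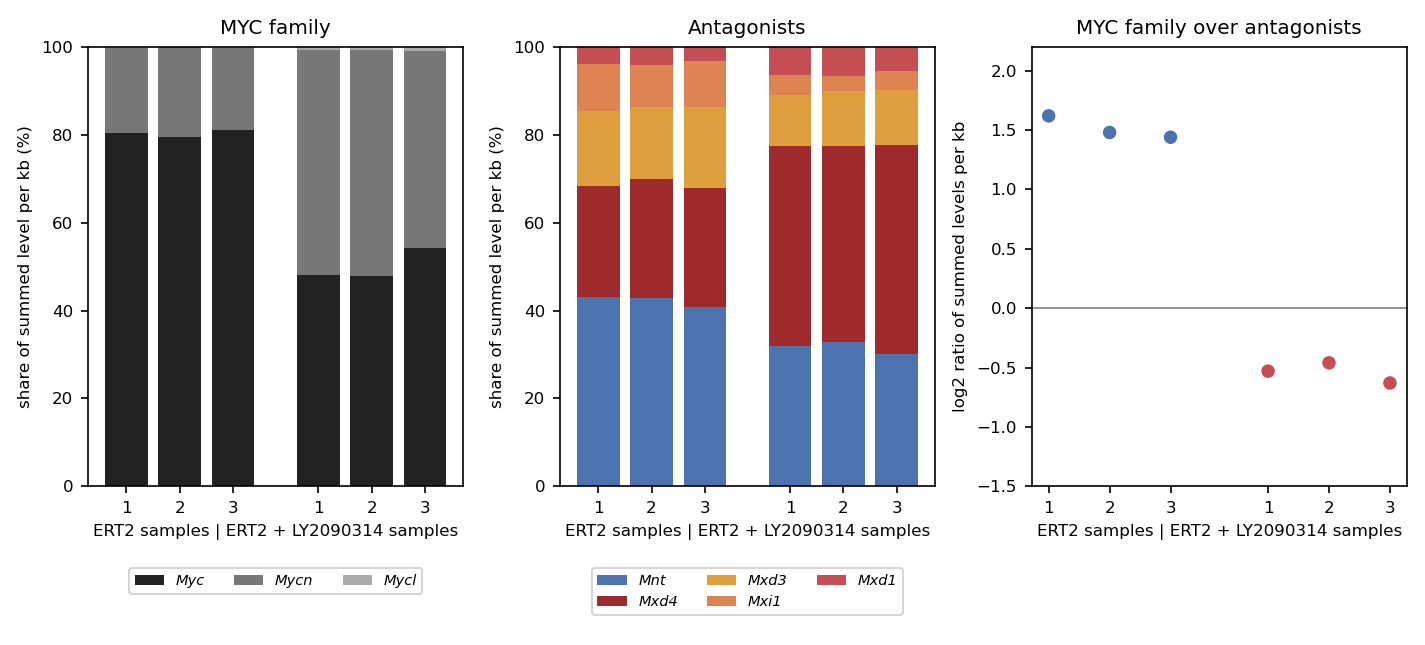
Stacked bars give each gene's share (%) of the summed level per kb of joined exons in each of the 6 samples. Shares are of the MYC family and of the antagonists, and points give the log2 ratio of the 2 sums per sample. Mycn goes from 19.6% to 49.2% of the MYC family and Mxd4 from 26.5% to 45.9% of the antagonists, and the log2 ratio is above 0 in every control and below 0 in every treated sample.

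The remaining genes of the extended network were described with lists of 142 genes in all. Of 4 other members of the extended network 3 were tested. MGA, a large MAX partner of a repressive Polycomb complex, was higher, with Mga at 11.69 ± 0.13 in controls and 12.09 ± 0.16 in treated samples (log2 difference 0.39, limma adjusted p = 0.0092). Mlxip, which encodes MondoA, differed by 0.18 (95% interval -0.026 to 0.39). Zbtb17, which encodes the MYC-binding factor MIZ1, differed by 0.13 (-0.036 to 0.29). Neither passed the limma test (adjusted p = 0.13 and 0.17). Without treated sample 3 Mlxip passed (limma adjusted p = 0.0044). Mlxipl was listed at -1.36 in all 6 samples, under the filter.

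Of 35 genes that MYC is known to activate, 28 were lower, 3 were higher and 4 did not pass the limma test, with a median log2 difference of -0.56, compared with 25.3% lower and 24.8% higher and a median of 0.012 over all genes. The largest differences were those of Slc19a1, a folate carrier, Srm, the spermidine synthase, Gart and Cad, enzymes of purine and pyrimidine synthesis. Slc19a1 stood at 9.91, 10.02 and 9.99 in controls and 8.74, 8.71 and 8.59 in treated samples (log2 difference -1.29, SE 0.064, limma adjusted p = 2.6e-06). The log2 differences of Srm, Gart and Cad were -1.11, -1.07 and -0.95, with no overlap between the groups. Closest to 0 were Nolc1, a nucleolar protein listed near the filter at about 3.14 (0.011, 95% interval -0.21 to 0.23), and Nme1, a nucleoside diphosphate kinase (0.029, -0.18 to 0.24). The 3 that were higher, named after their values were seen, were the cyclin D2 gene Ccnd2 (14.82 to 15.75, log2 difference 0.92), the telomerase gene Tert (0.71) and the transferrin receptor gene Tfrc (0.52). The groups of Tfrc overlapped, and its call was lost without any 1 control sample and without treated sample 1 or 2 (limma adjusted p up to 0.14).

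Of 8 genes that MYC is known to repress, 5 were tested, 4 were higher and 1 lower (median log2 difference 0.62), compared with 24.8% and 25.3% over all genes. The cell cycle inhibitor genes Cdkn1a (p21), Cdkn2b (p15) and Cdkn1b (p27) had log2 differences of 0.81, 0.62 and 0.25, and the stress-response gene Gadd45a one of 0.75. Cdkn1a stood at 10.24, 10.23 and 10.39 in controls and 11.08, 11.02 and 11.19 in treated samples. Cdkn2b was low, at 3.28 ± 0.04 and 3.9 ± 0.066 (SD, n = 3 each), and the call of Cdkn1b was lost without treated sample 1 or 2 (limma adjusted p up to 0.064). Ndrg1, a differentiation-related gene, was the exception, with 7.42 ± 0.19 in controls and 6.84 ± 0.2 in treated samples (log2 difference -0.58, limma adjusted p = 0.0088).

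**Figure D5:**
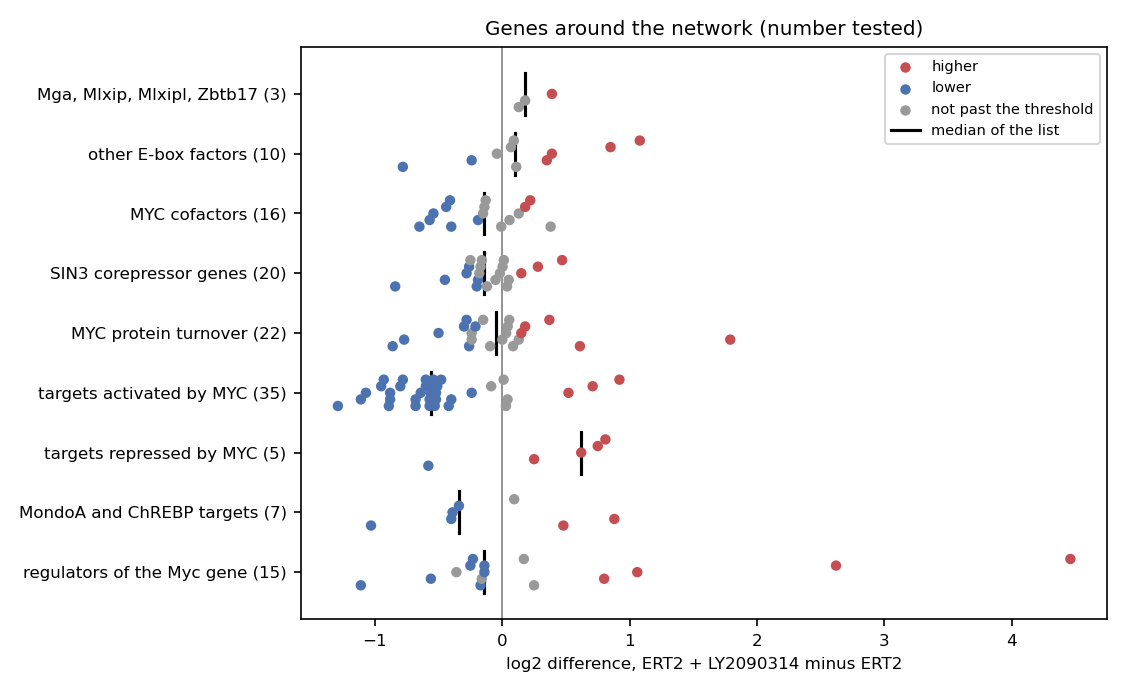
Each point is the log2 difference in rlog level (treated minus control) of 1 tested gene in 1 list (number tested in brackets), red where it was called higher, blue where lower and grey where it did not pass the limma test, with a black bar at the list median. The 35 activated targets centre at -0.56 with 28 lower, the 5 repressed targets at 0.62 with 4 higher, and the cofactor, SIN3 and protein turnover lists have medians of -0.15, -0.14 and -0.047.

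The proteins that MYC and its antagonists work through had smaller differences. Of 16 MYC cofactors 7 were lower and 2 higher, with a median log2 difference of -0.15, and the 9 called are a share near the 50.1% called over all genes. The largest were Ruvbl2 (-0.65) and Ruvbl1 (-0.57), the ATPases of the TIP60 and INO80 complexes, Wdr5 (-0.54), which anchors MYC on chromatin, and Smarcb1 (-0.44), a SWI/SNF subunit. Cdk9, a kinase that releases paused RNA polymerase II, was close to 0 (0.057, 95% interval -0.059 to 0.17). The 2 higher genes, named after their values were seen, were Ep300 (0.22) and Ccnt1 (0.18), and each lost its call without treated sample 1 or 2 or control sample 3, Ccnt1 also without control sample 2 (limma adjusted p up to 0.066 and 0.14). Of 20 corepressor genes around SIN3 that the antagonists recruit, 6 were lower, 3 higher and 11 not called, with a median of -0.14, again near the 50.1% over all genes. Ing2 went from 8.44 ± 0.13 to 8.0 ± 0.066 (SD, n = 3 each, log2 difference -0.45), and the SIN3-bound Arid4b and Arid4a differed by 0.47 and 0.28. Sap130 (0.0028, 95% interval -0.27 to 0.27) and Rbbp4 (0.013, -0.12 to 0.14) were nearest to 0.

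MYC protein is phosphorylated by GSK3 as a signal for its degradation, so that the genes of its turnover were described as well. Of 22 such genes 7 were lower, 5 higher and 10 not called, with a median log2 difference of -0.047, also near the 50.1% over all genes. The kinase genes Pim2 and Pim1, whose products phosphorylate MYC, moved apart. Pim2 stood at 8.46, 8.41 and 8.43 in controls and 10.29, 10.18 and 10.19 in treated samples (log2 difference 1.79, limma adjusted p = 2.9e-07), whereas Pim1 was lower by the test (-0.77). Set, an inhibitor of the phosphatase PP2A, differed by -0.86, and Fbxo28, a subunit of a ubiquitin ligase that acts on MYC, by 0.61. Ppp2ca, the catalytic subunit of PP2A, was close to 0 (0.031, 95% interval -0.094 to 0.16). Outside the rule for naming, Fbxw7, the ligase subunit that reads the GSK3 phosphorylation, was higher (0.37, limma adjusted p = 0.0013), and Gsk3b itself, which encodes the target of the inhibitor, differed by 0.13 (limma adjusted p = 0.051, and 0.044 without treated sample 3). These values are of transcripts and do not measure MYC protein.

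Of 9 genes that MLX and its Mondo partners are known to regulate, 7 were tested, 2 were higher, 4 lower and 1 not called (50.1% called over all genes), with a median log2 difference of -0.34. Txnip, which restrains glucose uptake and is the best known MondoA target, rose from 10.5 ± 0.073 to 10.98 ± 0.11 (log2 difference 0.48, limma adjusted p = 0.00069). Pfkfb3, a regulator of glycolysis, rose from 10.9 ± 0.058 to 11.78 ± 0.039 (0.88). The genes of fatty acid synthesis Acaca (-1.03), Fasn (-0.4) and Scd1 (-0.34) were lower, as was the hexokinase gene Hk2 (-0.39), whose call was lost without control sample 1 or 2 (limma adjusted p up to 0.073). Acly, which supplies acetyl-CoA, differed by 0.094 (95% interval -0.018 to 0.21, limma adjusted p = 0.14). Arrdc4 was listed at -2.28 and Pklr at 0 in all 6 samples, under the filter.

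Of 16 factors known to act on transcription of the Myc gene, 15 were tested, 4 were higher, 7 lower and 4 not called (50.1% called over all genes), with a median log2 difference of -0.14. Prdm1, which encodes the plasma cell repressor BLIMP1 that silences Myc, rose from 5.99, 6.11 and 6.1 to 10.5, 10.54 and 10.55, a log2 difference of 4.46 (SE 0.069, limma adjusted p = 1.6e-08). Of the factors that bring β-catenin to DNA, Tcf7 (7.92 ± 0.081 to 10.55 ± 0.052, log2 difference 2.62) and Lef1 (11.28, 11.29 and 11.03 to 12.05, 12.07 and 11.87, 0.8) were higher and Tcf7l2 was lower (7.01 ± 0.2 to 5.9 ± 0.13, -1.11), while Tcf7l1 was under the filter. Of the Ikaros family, zinc finger factors that repress Myc in pre-B cells, Ikzf3 was higher (11.73 ± 0.073 to 12.79 ± 0.12, 1.06) and Ikzf1 lower (13.59 ± 0.036 to 13.36 ± 0.031, -0.23). Cnbp (-0.56), which binds the Myc promoter, the insulator factor Ctcf (-0.25), the promoter-binding Hnrnpk (-0.17) and the signalling factors Stat5b (-0.14) and Nfkb1 (-0.14) were lower. The calls of Hnrnpk, Stat5b and Nfkb1 were lost without control sample 1 or 2 or treated sample 1, and those of Stat5b and Nfkb1 also without treated sample 2 (limma adjusted p up to 0.072, 0.13 and 0.14). Fubp1 (-0.36), Notch1 (0.25), Rela (0.17) and Stat5a (-0.16) did not pass (limma adjusted p = 0.055, 0.083, 0.057 and 0.23). They passed when a single sample was left out, which was control sample 3 for Fubp1 and Rela, treated sample 3 for Notch1 and treated sample 1 for Stat5a (limma adjusted p = 0.0069, 0.042, 0.0051 and 0.047). Ctnnb1, which encodes β-catenin, was present in both groups (12.19 ± 0.0042 and 11.85 ± 0.025, log2 difference -0.35, limma adjusted p = 0.0003).

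The genes around Myc on chromosome 15 had smaller differences. Within 2 Mb of the gene 4 other genes were tested. Compared with 50.1% of all genes called and 25.3% called lower, 1 of the 4 passed the test and was lower. This was the noncoding 9930014A18Rik, at -1163 kb from the Myc start (log2 difference -0.66, SE 0.08, limma adjusted p = 0.00031). Pvt1, the noncoding gene that begins 52.59 kb downstream of the Myc start and is often amplified with it in cancer, stood at 6.63, 6.79 and 6.7 in controls and at 7.02, 6.84 and 6.47 in treated samples. The groups overlapped, and the log2 difference of 0.07 did not pass (95% interval -0.26 to 0.4, limma adjusted p = 0.7). Fam84b differed by -0.17 (limma adjusted p = 0.064) and the pseudogene Gm5473 by -0.1 (adjusted p = 0.51). The interval of Pvt1 did not reach a decrease of the size of Myc.

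The genes with a pattern most like that of Myc over the 6 samples were found by the root mean square difference of their values, each centred on its control mean, from those of Myc, among 11535 other genes. They were Smtnl2 (0.073), Txnrd3 (0.094), 5730488B01Rik (0.11), Nrxn2 (0.17) and the B cell octamer factor gene Pou2f2 (0.21), with log2 differences of -2.56, -2.52, -2.51, -2.48 and -2.77. For Mxd4, the member with the largest rise, they were Rnf157 (0.029), Akap2 (0.035), Grb7 (0.041), Otud1 (0.05) and the interferon response factor gene Irf9 (0.052), with log2 differences of 0.9, 0.91, 0.85, 0.9 and 0.89. No other member was among the 5 nearest genes of either. With little spread inside groups, the measure mostly ranks genes by how near their log2 differences are. The absence of other members thus follows largely from the differences given above. The likeness is a description over 6 samples.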

How the data were processed

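RNA-seq libraries of polyadenylated RNA (stranded KAPA kit) were sequenced as paired ends. The authors quantified reads with Salmon, aligned them to GRCm38 (GENCODE vM24) by STAR and used DESeq2 1.30.1. They deposited 1 table of rlog values on a log2 scale for 41444 genes in 12 columns, whose input samples and options are not stated. Without read counts depth is unknown, no count test was used, and no interval for counting error can be given. From these values, 6 columns were matched to the 2 groups by name, and the 6 others, whose names combine Cre and LY in 2 spellings, were not used, so that comparisons with Cre-ERT2 cells planned at first were not made. Symbols for 41157 identifiers, positions and exon lengths came from GENCODE vM21 (GRCm38), promoters from RefSeq. Genes with a mean of at least 3 over the 6 samples (11536) were fitted with limma 3.58.1 in R 4.3.3 (eBayes, trend on). P-values were adjusted over all of them by Benjamini-Hochberg, with a threshold of 0.05. Members and lists were chosen with earlier results of these data known. Named were all 10 members, in each list up to 4 genes of largest difference past the threshold and up to 2 nearest 0, every gene of the extended network, Mondo target and Myc regulator lists, the tested genes around Myc, and the 5 genes most like Myc or Mxd4. Exact permutation tests used SciPy 1.17.1. Some genes that this rule names are not reported here. Alternatives covered the trend, filter, scaling, thresholds, gene lengths, left-out samples and the shared library number.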

Additional observations from a re-analysis of the deposited data

How the results depend on the processing

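The direction of all 10 members was kept under every alternative run. Only median centring and quantile normalization could have changed it. Fits that left out or merged samples could not, since the groups of no member overlapped, and the other settings reuse the same differences. Of 149 values for a member under an alternative, all but 20 kept their side of the threshold. Leaving out each sample in turn gave 4734 to 6228 genes, 7 to 9 members and 77 to 93 list genes past the threshold, compared with 5778, 9 and 90, and a change of the log2 ratio of -2.09 to -2.0. Requiring a difference of at least 1 left 693 genes, 2 members and 10 list genes. The change of the log2 ratio moved from -2.05 to -2.34 with coding length and -2.19 with the longest coding transcript. Median centring and quantile normalization shifted the median of all genes by -0.0263 and -0.049. With the samples sharing a library number counted as 1, 4936 genes and 8 members passed, Max being lost. With samples 1 and 2 of each group alone, which was added once the data had been seen, 6408 genes and 8 members passed, Mlx being lost (0.16, limma adjusted p = 0.069). At an adjusted p under 0.01, 4021 genes and 7 members passed. No paired analysis was possible because the table does not tie its columns to the replicate numbers of the samples. Without counts, the depth behind low genes such as Mycl and Cdkn2b is unknown, and shrinkage makes their differences smaller.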

Other observations

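Other basic helix-loop-helix factors that bind E-boxes without MAX, with or without a leucine zipper, did not move in 1 direction. Of 12 such genes 10 were tested, 4 were higher, 2 lower and 4 not called (50.1% called over all genes), with a median log2 difference of 0.1. Arntl, which encodes the circadian factor BMAL1, stood at 6.03, 5.05 and 5.21 in controls and at 6.66, 6.63 and 6.25 in treated samples, a log2 difference of 1.08 (SE 0.25, limma adjusted p = 0.0083) with a wide spread among controls. Its dimerization partner Clock differed by 0.069 (95% interval -0.4 to 0.53), and in each group the samples numbered 3 were lowest, at 7.68 and 7.74. Bhlhe41, a repressor that competes at the same E-boxes, rose from 8.84 ± 0.042 to 9.69 ± 0.084 (SD, n = 3 each, log2 difference 0.85). Tfeb, a regulator of lysosome genes, was lower (9.7 ± 0.097 and 8.92 ± 0.018, -0.78, limma adjusted p = 4e-05), and Usf1 was higher (0.39, limma adjusted p = 0.0086). Srebf2, which controls sterol synthesis, was nearest to 0 (-0.042, 95% interval -0.18 to 0.093).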
